A study of Bos taurus with 6 samples.

Results

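The miR-26 family was examined in small RNA libraries of cultured bovine granulosa cells, the somatic cells that surround the oocyte in the ovarian follicle. Its members were found by name, as every listed bovine miRNA named miR-26a, miR-26b or miR-26c, which gave 3 of the 1028 miRNAs listed. Of these, bta-miR-26a and bta-miR-26b had reads in all 6 libraries and bta-miR-26c had none in any. The control group held 3 libraries of cells kept at 37 °C, and the heat stress (HS) group held 3 libraries of cells moved to 42 °C for 24 h. Both groups came from follicles of 3 to 6 mm, collected at a slaughterhouse, and both were first grown for 24 h in medium with serum depleted of exosomes. No genotype, breed or age of the donor cows was used here, and the submitters call the libraries of a group biological replicates without saying whether each library came from a separate pool of ovaries, so p-values measure the spread between these libraries only.

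miRNAs are short RNAs that guide silencing proteins to messenger RNAs, chiefly through the seed, a short stretch near the 5′ end. miR-26a and miR-26b share this seed and are therefore taken to reach largely the same targets, among them the chromatin modifier EZH2. In porcine granulosa cells miR-26b is known to promote apoptosis by acting on the DNA damage kinase ATM and on SMAD4, the common mediator of TGF-β signalling, and it is linked there to follicle atresia. The hairpins of the family lie in genes of the CTDSP phosphatases, which act on the retinoblastoma protein and on RNA polymerase II.

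In RefSeq (assembly ARS-UCD2.0), bta-miR-26a had 2 genes, MIR26A-1 within CTDSPL and MIR26A-2 within CTDSP2. bta-miR-26b had 1, MIR26B within CTDSP1. MIR26C, the gene of bta-miR-26c, was annotated on the same interval as MIR26A-1, and an older name for it is MIR3603. Reads were mapped to another assembly, UMD3.1, so positions are not given. Mature reads of bta-miR-26a cannot be traced to either of its genes, and how reads that match both bta-miR-26a and bta-miR-26b were shared out is not given in the sources used here. The sequences of the members were not used here.

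The libraries held 2076239 to 4590971 reads assigned to miRNAs, as recovered from the deposited values. Control replicate 1 had the fewest of these reads. The study lists more quality-passed reads for it than for the other control libraries, but the smallest share mapped to miRNAs of all libraries. The first principal component of the miRNA profile took 43.1% of the variance. On it control replicate 1 scored 6.13, the other control libraries -4.93 and -4.86, and the HS libraries between -2.97 and 4.22. No pair of libraries agreed within sampling noise (chi-square of 59.4 to 447 per degree of freedom). No miRNA defines granulosa cells by itself. Of 5 miRNAs linked to these cells all were present, with a summed level of 3202 to 4595 normalised CPM (reads scaled by library size and a TMM factor) in control and 3089 to 3935 in HS libraries, led by bta-miR-202. A set of 7 blood cell miRNAs summed to 730.2 to 895.4 in control and 676.6 to 799.8 in HS libraries, and the erythrocyte markers bta-miR-451 and bta-miR-144 had at most 8 and 1 reads in any library. bta-miR-486, which red cells also carry, had 43 to 181 reads, and its groups overlapped (log2 fold change 0.56, limma adjusted p = 0.806). Most of the blood sum came from other members of that set. These were bta-miR-142-5p, at 248 to 429 normalised CPM, bta-miR-223, at 196 to 311, and bta-miR-150, at 45 to 261. Their groups overlapped too. A set of 6 miRNAs of mesenchymal cells, such as theca and stroma, summed to 1327 to 2090 in control and 2012 to 2201 in HS libraries. The part of other cell types in the values below was not tested, and in bulk libraries fewer cells of a type and less RNA per cell cannot be told apart.

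bta-miR-26a was an abundant miRNA of granulosa cells at both temperatures. At 37 °C replicates 1, 2 and 3 held 22824, 26367 and 25137 normalised CPM of it, and at 42 °C they held 24522, 25117 and 25069. The HS libraries lay within the range of the control libraries, with control replicate 1 the lowest and control replicate 2 the highest of all. These levels rested on 46749 to 121369 reads per library, for which counting alone gives a coefficient of variation of 0.287% to 0.463%. With a mean of 24839 it was the 11th most abundant of the listed miRNAs, and between the 8th and the 13th in single libraries.

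bta-miR-26b was present at a lower level and varied more. At 37 °C replicates 1, 2 and 3 held 6374, 10035 and 8314 normalised CPM, and at 42 °C they held 7627, 6807 and 8258. Again control replicate 1 was the lowest library and control replicate 2 the highest, and the HS libraries lay between them. The highest level was 1.57 times the lowest, against 1.16 times for bta-miR-26a. It rested on 13056 to 46193 reads per library, and its mean of 7903 placed it 26th.

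bta-miR-26c was listed at 0 reads in all 6 libraries. It was counted with the family by its name, and whether it carries the same seed was not checked here. A count of 0 allows up to 3 reads, or 0.639 to 1.46 normalised CPM in libraries of these depths. Both arms of another miRNA with a gene in CTDSPL, bta-miR-2367, were also at or near 0. bta-miR-2367-3p had no read, and bta-miR-2367-5p had at most 5 in any library. These arms were chosen after their values were seen.

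**Figure D1:**
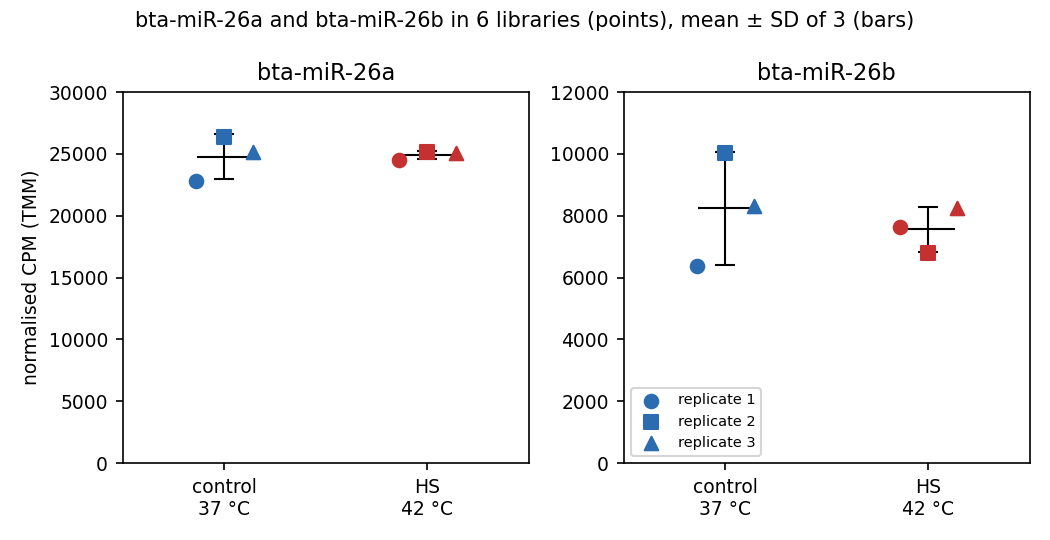
Normalised CPM of bta-miR-26a (left) and bta-miR-26b (right) in each library, with control cells in blue and HS cells in red. Symbols give the replicate number and black bars the mean ± SD of 3 libraries; the HS libraries of both miRNAs lie between control replicate 1, the lowest, and control replicate 2, the highest.

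To ask whether HS altered the family, both expressed members were compared between the groups within a fit over 365 miRNAs (limma on log2 of the value plus 1, Benjamini-Hochberg adjustment over all 365). bta-miR-26a averaged 24776 ± 1799 normalised CPM at 37 °C and 24903 ± 330 at 42 °C (mean ± SD of 3 libraries per group). On the log2 scale HS minus control was 0.0099 with an SE of 0.0855 (limma adjusted p = 0.969), far smaller than the spread between replicates. Its 95% interval ran from -0.19 to 0.21, or from 0.875-fold to 1.16-fold. Only 4 of the 365 tested miRNAs had a log2 fold change smaller in size.

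bta-miR-26b averaged 8241 ± 1832 at 37 °C and 7564 ± 727 at 42 °C (mean ± SD of 3 libraries per group). The log2 difference of -0.10, with an SE of 0.177 (limma adjusted p = 0.885), was also within the spread between replicates. The 95% interval ran from -0.52 to 0.32, or from 0.696-fold to 1.25-fold. Without control replicate 1, the lowest library for both members, bta-miR-26b was at -0.28 (limma adjusted p = 0.369) and bta-miR-26a at -0.048 (limma adjusted p = 0.819). Without control replicate 2, the highest library for both, the value of bta-miR-26b turned to 0.051 (limma adjusted p = 0.933).

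The study's own limits for a changed miRNA, an adjusted p no higher than 0.2 and a shift by 1 log2 unit or more, were met by neither tested member and by 3.01% of the miRNAs tested. Neither had an adjusted p under 0.05, which held for 2.19% of them, and neither had groups that did not overlap, as 20% of them did. Their unadjusted limma p-values were 0.911 for bta-miR-26a and 0.577 for bta-miR-26b. The median log2 fold change over all 365 was -0.0015 and its median size 0.2. The direction of such small values turns with the scaling. Upper quartile factors moved the median of all tested miRNAs to -0.18, and under them bta-miR-26a was at -0.18 and bta-miR-26b at -0.29. Relative to bta-miR-361, the miRNA the study used as its PCR reference, the median was 0.17, bta-miR-26a 0.20 and bta-miR-26b 0.084. Measured from the median of each fit, bta-miR-26a lay between 0.0014 and 0.030 and bta-miR-26b between -0.11 and -0.086 in the 15 alternatives that kept all libraries.

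**Figure D2:**
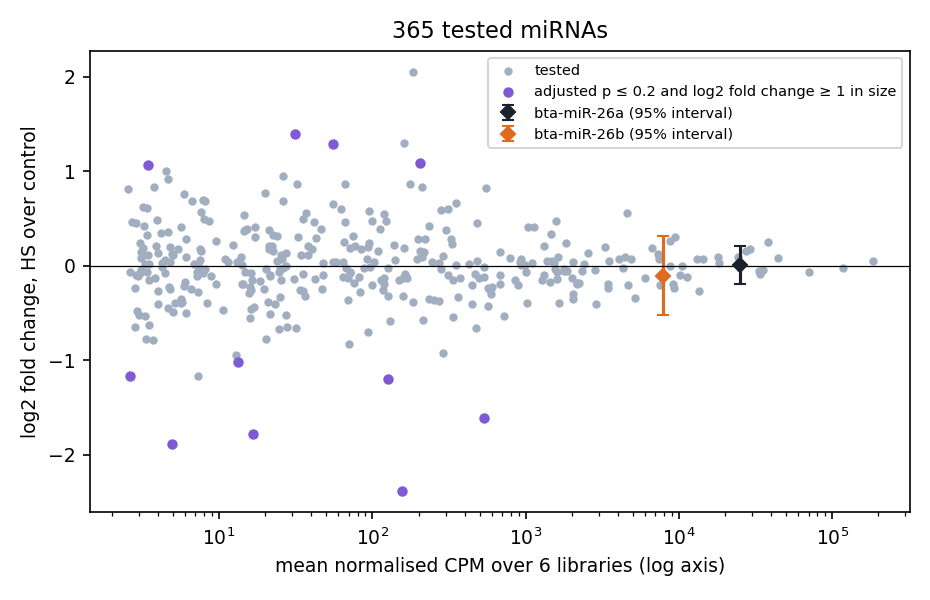
Log2 fold change of HS over control (vertical axis) against mean normalised CPM on a log axis for the 365 tested miRNAs, with the 11 that met the study's limits in purple. The diamonds with 95% intervals are bta-miR-26a at 0.0099 and bta-miR-26b at -0.10, both among the abundant miRNAs and both with intervals across 0.

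**Figure D3:**
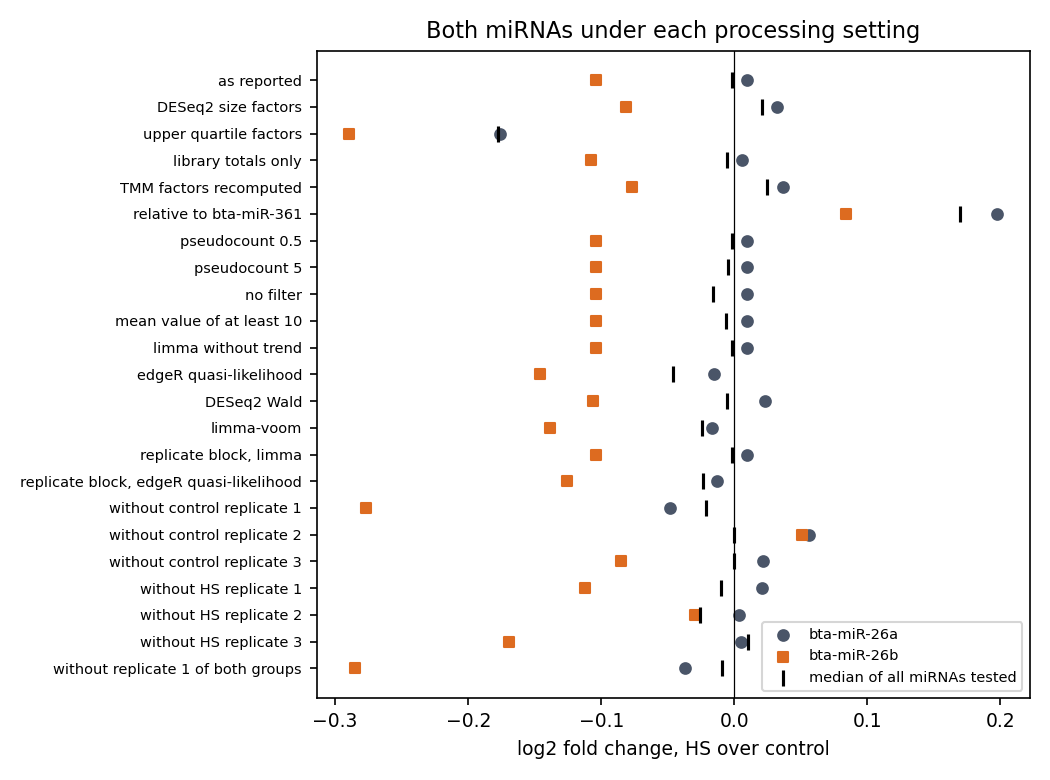
Log2 fold change of HS over control for bta-miR-26a (circles) and bta-miR-26b (squares) under each processing setting, with the median of all tested miRNAs as a vertical tick. bta-miR-26a stays close to the tick where all libraries are kept, and bta-miR-26b runs from -0.29 with upper quartile factors to 0.084 relative to bta-miR-361, and lies at -0.28 and 0.051 without control replicate 1 and 2.

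The members differed in how far replicates spread. Within groups bta-miR-26a had an SD of 0.076 log2 units, against a median of 0.266 over the 365 tested miRNAs, and 14 of them were steadier. Among the 77 miRNAs with a mean of at least 1000 normalised CPM the median was 0.188, and bta-miR-26a was the 10th steadiest. bta-miR-26b, at 0.253, was the 58th of these 77. The reference bta-miR-361, at 0.111, was the 22nd. In the HS libraries alone the SD of bta-miR-26a was 0.019 log2 units, against 0.106 in control libraries. For bta-miR-26b these were 0.14 and 0.329. Both SDs were thus lower in HS libraries, as was the median over all tested miRNAs, at 0.196 against 0.278. With 3 libraries a group, no test of these spreads was made. bta-miR-361 itself averaged 3670 ± 335 normalised CPM at 37 °C and 3217 ± 190 at 42 °C (mean ± SD of 3 libraries per group), and its log2 fold change was -0.19 with a limma adjusted p of 0.539.

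Since both members carry the same seed, their summed level was also compared. The family took 2.88%, 3.69% and 3.36% of the reads in control replicates 1, 2 and 3. The HS libraries lay inside that range, at 3.22% and 3.41% for replicates 2 and 3 and slightly lower for replicate 1. As a summed level this was 33017 ± 3622 normalised CPM at 37 °C and 32467 ± 753 at 42 °C (mean ± SD of 3 libraries per group), which as a single miRNA would have ranked 6th to 11th in single libraries. The difference of -0.019 log2 units was within the spread of the libraries (two-sided exact permutation p = 0.9, where 0.1 is the lowest that 3 against 3 can give). With bta-miR-21-5p and bta-miR-155, the most abundant miRNAs of these libraries, left out of the total, the share was 4.74% ± 0.69 at 37 °C and 4.64% ± 0.25 at 42 °C (mean ± SD of 3 libraries per group), and the groups again overlapped (two-sided exact permutation p = 1).

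The balance within the family does not depend on the scaling of a library. bta-miR-26a had 3.58, 2.63 and 3.02 times the reads of bta-miR-26b in control replicates 1, 2 and 3, and 3.22, 3.69 and 3.04 times in HS replicates 1, 2 and 3. bta-miR-26b thus made up 21.8%, 27.6% and 24.9% of the family reads at 37 °C and 23.7%, 21.3% and 24.8% at 42 °C. bta-miR-26a was the major member in 6 of 6 libraries. The 95% Wilson interval was 21.5% to 22.2% in control replicate 1 and 27.4% to 27.8% in control replicate 2, so replicates of the same group differed by far more than counting error, which is all that these intervals cover. Between groups the log2 ratio of bta-miR-26b to bta-miR-26a was -1.61 ± 0.224 at 37 °C and -1.72 ± 0.145 at 42 °C (mean ± SD of 3 libraries per group). The difference of -0.11 was within the spread of the libraries (two-sided exact permutation p = 0.4). Taken by replicate number, the difference was 0.16, -0.49 and -0.006 for replicates 1, 2 and 3. It was thus carried by replicate 2, where control was highest and HS lowest. Ligation and amplification can favour one small RNA over another, so a ratio of reads between 2 miRNAs is not a ratio of molecules.

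**Figure D4:**
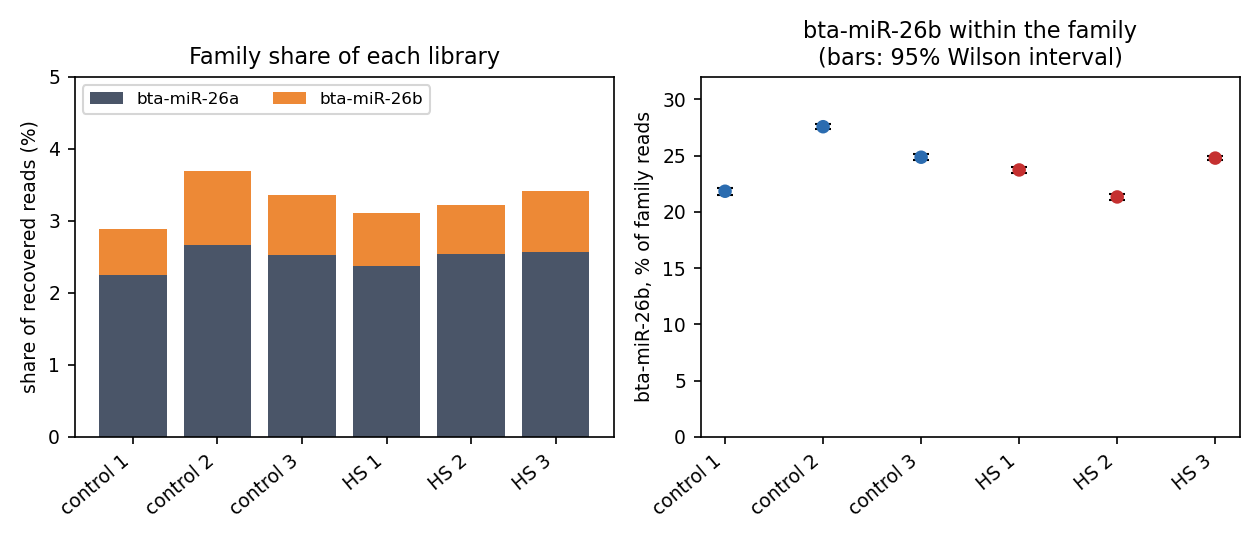
Left, share of recovered reads (%) taken by bta-miR-26a and bta-miR-26b in each library, stacked; right, bta-miR-26b as a percentage of the family reads with its 95% Wilson interval, control in blue and HS in red. The family share runs from 2.88% to 3.69%, both in control libraries, and the share of bta-miR-26b from 21.3% in HS replicate 2 to 27.6% in control replicate 2.

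In the order of levels, bta-miR-26a stood between bta-miR-125b and bta-miR-221. The 3 miRNAs just above it were bta-miR-16b, bta-let-7b and bta-miR-125b, with means of 33334, 28961 and 27441 normalised CPM over the 6 libraries. Just below were bta-miR-221, bta-miR-92a and bta-miR-29a, at 24282, 18170 and 18015. The ranges of bta-miR-16b, which was higher in 6 of 6 libraries, and bta-miR-29a, which was higher in none, did not overlap with that of bta-miR-26a. The ranges of the other 4 did, and bta-miR-221 was higher than bta-miR-26a in 3 of 6 libraries. Around bta-miR-26b stood bta-miR-30d, bta-miR-24-3p and bta-let-7d above, at 9116, 8789 and 8693, and bta-miR-99b, bta-miR-20a and bta-let-7g below, at 7519, 7419 and 7244. All 6 overlapped with it. The limma adjusted p-values of these 12 neighbours ran from 0.255 to 0.998.

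The members followed each other across the libraries in part. Over the 6 libraries the log2 levels of bta-miR-26a and bta-miR-26b had a Pearson r of 0.84 and a Spearman rho of 0.83. Without control replicates 1 and 2, the libraries farthest from the median, r was 0.074. The libraries left held bta-miR-26a within a narrow range, 24522 to 25137 normalised CPM. An r over so narrow a range cannot tell where the likeness rests. Both members also ran against the first principal component, with a Spearman rho of -0.94 for each and a Pearson r of -0.80 for bta-miR-26a and -0.86 for bta-miR-26b, and that component contains them. With the log2 number of miRNA reads in a library, Pearson's r was 0.93 for bta-miR-26a and 0.78 for bta-miR-26b, while Spearman's rho was 0.6 for each. The part of depth, or of the share of reads mapped to miRNAs, in their spread was not tested. These values are descriptions over libraries that share their preparation and scaling.

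The miRNA whose pattern was most like that of bta-miR-26a was bta-miR-196a (r = 0.98, rho = 0.94, and r = 0.78 without control replicates 1 and 2), followed by bta-miR-6522, bta-let-7i, bta-miR-152 and bta-miR-2284y, with r between 0.90 and 0.96. For these last 4, r without those libraries was between -0.065 and 0.29. bta-miR-6522, at a mean of 3.08 normalised CPM, was among the lowest miRNAs tested. The patterns most like that of bta-miR-26b were those of bta-let-7f, bta-miR-507b, bta-miR-6526, bta-miR-101 and bta-miR-148b, with r between 0.94 and 0.97 and rho between 0.83 and 1. Without control replicates 1 and 2 their r was 0.87 or higher. By this measure bta-miR-26b was the 18th most like bta-miR-26a among 364 miRNAs, and bta-miR-26a the 24th most like bta-miR-26b. The limma adjusted p-values of these 10 miRNAs ran from 0.731 to 0.969.

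Other miRNAs that carry the same number, differ by a letter and have the same arm suffix (-3p, -5p or none) in their names served as a yardstick for how far relatives move apart. Leaving out the pair of largest numbered groups, one of which holds bta-miR-2284y, there were 63 such pairs among the tested miRNAs beside the miR-26 pair. Relatives of which only 1 carries an arm suffix, such as bta-miR-27a-3p and bta-miR-27b, were not paired. The names were used and not the seeds, and pairs that share a miRNA are not independent. The log2 fold changes of bta-miR-26a and bta-miR-26b differed by 0.11, against a median of 0.23 over the 63 other pairs, and 18 pairs lay closer together. Over the 27 other pairs in which both miRNAs had a mean of at least 1000 normalised CPM, the median difference was 0.18 and 8 pairs lay closer. The correlation across libraries was higher than the 0.84 of the miR-26 pair in 12 of the 63 other pairs, with a median of 0.32. In the 27 it was higher in 3, with a median of -0.16, and 21 of these 27 were pairs of let-7 miRNAs.

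The family was also set beside other miRNAs linked to survival of granulosa cells, atresia or steroid production. Of 31 on this list, which includes bta-miR-26a and bta-miR-26b, all were listed in the files and 30 were tested, bta-miR-144 being too low. None of the 30 met the study's limits with limma, against 3.01% of all miRNAs tested, and none did with edgeR or DESeq2. An unadjusted limma p under 0.05 was found for 3 of the 30, or 10%, against 53 of the 365 miRNAs tested, or 14.5%. bta-miR-320a alone reached an adjusted p no higher than 0.2 at any fold change, as 26 of the 365 miRNAs tested did (7.12%), and none was under 0.05. The log2 fold change was above 0 for 18 and below 0 for 12, with a median of 0.021, and control and HS libraries did not overlap for 3 of the 30, or 10%, against 20% of all miRNAs tested. Of these 3, bta-miR-320a and bta-miR-34a were higher in HS libraries and bta-miR-93 was lower, at -0.27 (limma adjusted p = 0.203).

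The highest values of this list belonged to bta-miR-320a, which averaged 3728 ± 738 normalised CPM at 37 °C and 5451 ± 646 at 42 °C (mean ± SD of 3 libraries per group), with a log2 fold change of 0.56 and a limma adjusted p of 0.199. bta-miR-34a, a target of the tumour suppressor p53, and bta-miR-125a had log2 fold changes of 0.48 and 0.25 (limma adjusted p = 0.306 and 0.839). The lowest belonged to bta-miR-383, at -0.40, and to bta-miR-183 and bta-miR-182, which are made from a shared cluster, at -0.38 and -0.33 (limma adjusted p = 0.57, 0.947 and 0.954). The SE was 0.256 for bta-miR-383, 0.823 for bta-miR-183 and 0.828 for bta-miR-182. Replicate 3 had the highest level of bta-miR-183 and of bta-miR-182 in both groups. bta-miR-26a and bta-miR-26b lay in the middle of the list, and among its 30 tested members bta-miR-26a had the smallest log2 fold change in size.

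**Figure D5:**
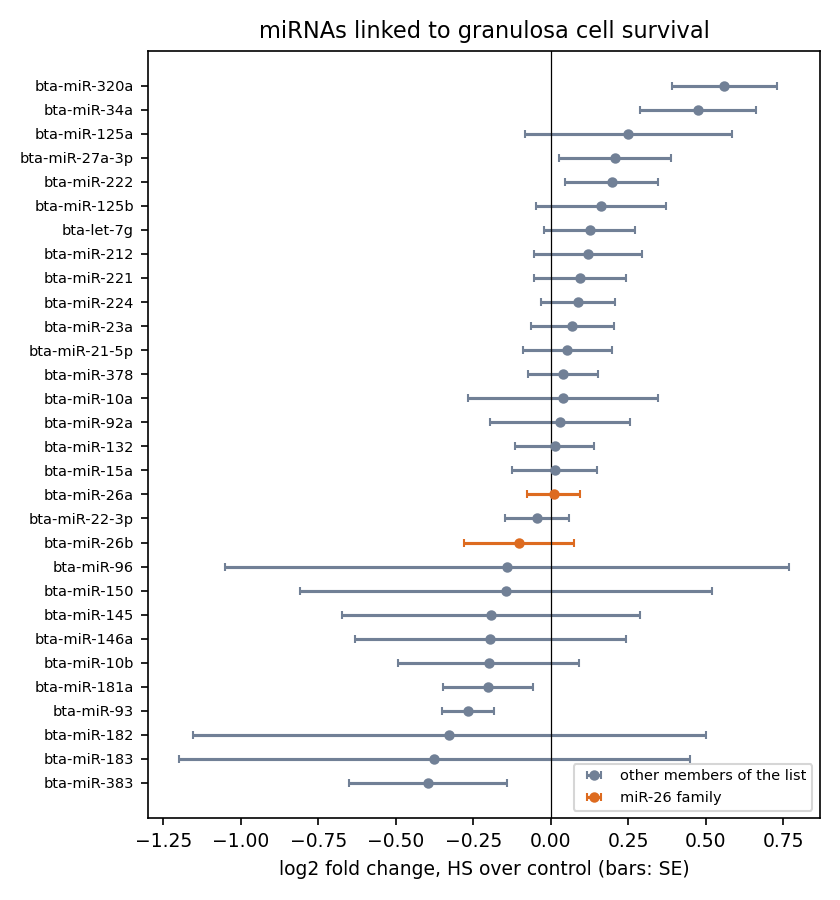
Log2 fold change of HS over control with its SE (limma) for the 30 tested miRNAs linked to granulosa cell survival, sorted by value, with the miR-26 family in orange. The values run from -0.40 for bta-miR-383 to 0.56 for bta-miR-320a, and bta-miR-26a at 0.0099 has the smallest in size.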

How the data were processed

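Total RNA enriched for miRNAs (100 ng per library) was made into libraries with unique molecular identifiers and 16 PCR cycles. The authors trimmed and collapsed reads with Cutadapt 1.11, mapped them with Bowtie2 2.2.2 to UMD3.1, assigned them to miRBase and normalised by TMM. The deposited signal is TMM-normalised CPM, 1 value per miRNA and library. All values were whole multiples of 1 step per library (100%, tolerance 0.01 reads), which gave back whole reads.

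limma 3.58.1 with a mean-variance trend (R 4.3.3) was run on log2(value + 1), which understates changes of low miRNAs, after the filterByExpr filter of edgeR 4.0.16 on recovered reads; 365 miRNAs passed. The design foresaw edgeR for raw counts and limma for this unit. DESeq2 1.42.0, edgeR, limma-voom, other scalings, filters and pseudocounts, the replicate block and the omission of libraries were alternatives. Permutation tests used scipy 1.17.1. The fit was tested on simulated reads with shifts far larger than those of the members, so that test does not bear on changes of their size.

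Members and lists were chosen with earlier results of these data known. Genes named are the members, 3 neighbours in level on each side, the 5 most correlated miRNAs per member, the 3 highest and 3 lowest of the survival list, bta-miR-361 and host genes. Outside this rule, bta-miR-202, bta-miR-451, bta-miR-144, bta-miR-486, bta-miR-142-5p, bta-miR-223 and bta-miR-150 are named as markers, and bta-miR-144 also as a list member not tested. As the most abundant miRNAs, bta-miR-21-5p and bta-miR-155 are named, and bta-miR-93 for groups without overlap. An example of names is given by bta-miR-27a-3p and bta-miR-27b. These names outside the rule were chosen after their values were seen. Of 1028 identifiers, 1007 matched a RefSeq gene. A planned comparison of pairs by seed used names instead, chosen after seeing the data, as were the values of bta-miR-2367.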

Additional observations from a re-analysis of the deposited data

How the results depend on the processing

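Neither bta-miR-26a nor bta-miR-26b passed an adjusted p of 0.2 under any of the 22 alternatives. The lowest adjusted p was 0.369. The log2 fold change of bta-miR-26a, 0.0099, turned to -0.18 with upper quartile factors, -0.016 with the edgeR quasi-likelihood test, -0.013 with that test and the replicate block, -0.017 with limma-voom and -0.037 without replicate 1 of both groups. It ran from -0.048 without control replicate 1 to 0.056 without control replicate 2. That of bta-miR-26b, -0.10, was 0.084 relative to bta-miR-361 and ran from -0.28 to 0.051 without the same libraries. The summed level, -0.019, was -0.20 with upper quartile factors (exact permutation p = 0.3), turned to 0.0035 with DESeq2 size factors and likewise ran from -0.10 to 0.055. The difference in log2 ratio kept its sign under its alternatives, at -0.23 to -0.0053 without those libraries. The median of the survival list was -0.17 with upper quartile factors, which moved the median of all tested miRNAs to -0.18. The cause of the other turns was not tested.

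miRNAs called at the first threshold were 18 relative to bta-miR-361, against 11. At an adjusted p under 0.05 they were 5 with upper quartile factors and 20 with DESeq2, against 8, and ran from 2 without control replicate 3, HS replicate 2 or HS replicate 3 to 12 without control replicate 1. They were 5 without control replicate 2 and 4 without HS replicate 1. The deviations of same-numbered libraries from their group means correlated at 0.421, -0.117 and 0.616 for replicates 1, 2 and 3. Their chi-square per degree of freedom was 114, 296 and 59.4, the last being the lowest of any pair of libraries. Replicates 1 and 3 were thus alike across groups, and replicate 2 was not. Whether a number marks a shared pool of cells is not stated, and the main fit did not take the numbers as pairs. With the replicate block limma gave 0.0099 and -0.10 for the members (adjusted p = 0.951 and 0.838). The counting error of the members was under 1% in each library. The part of depth, or of the share of reads mapped to miRNAs, in their spread was likewise not tested.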
